A study of Homo sapiens with 40 samples.

Results

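MYC was switched on by doxycycline (Dox) in U2OS cells that carried hairpin 3 against CTR9, and the response of every gene was read by RNA sequencing. These cells gave 8 of the 40 libraries of the series, 4 with Dox and 4 with ethanol (EtOH). They were defined by treatment and hairpin, and were chosen with earlier results of these data known. U2OS is a human osteosarcoma line, and all cells stably expressed a MYC TetOn system, in which Dox turns on a MYC transgene. All were infected with a pGIPZ hairpin vector, selected in puromycin at 0.2 µg/ml, and then given 1 µg/ml Dox or EtOH for 24 h. The groups used here, with 4 libraries each, were Dox shCTR9#3, EtOH shCTR9#3, Dox shCTR9#5, EtOH shCTR9#5, Dox shNTC and EtOH shNTC, where shCTR9#5 is hairpin 5 against CTR9 and shNTC the control hairpin. The EtOH cells thus carried the CTR9 hairpin and the TetOn system too. The hairpins were brought in by infection, and whether the TetOn line is 1 clone is not given in the sources used here.

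MYC is a transcription factor that pairs with MAX and binds E-boxes, DNA elements with the core letters CACGTG. It is known for raising genes of ribosome assembly, nucleotide synthesis and nutrient uptake in growing cells, and for lowering genes of adhesion and the cytoskeleton. CTR9 is a subunit of the PAF1 complex, which travels with RNA polymerase II as it elongates along a gene. Per its title, the study asked how ubiquitylation of MYC links elongation to the repair of DNA breaks at active promoters. The comparison of Dox with EtOH under a CTR9 hairpin gives the response to Dox when CTR9 mRNA is low. No cells without the TetOn system received Dox, so effects of MYC and of Dox itself cannot be told apart.

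Levels are CPM, the reads of a gene scaled by TMM to a standard library total, except where stated. Library totals ran from 997585 to 1337909 counts (median 1184426), so 3 counts, the floor used for a gene at 0, correspond to 2.22 to 3.06 CPM. Changes are log2 fold changes of Dox over EtOH with a standard error (SE) from edgeR's quasi-likelihood test, called at a Benjamini-Hochberg adjusted p under 0.05 over 12557 genes. The labels only number the replicates, so p-values measure the spread between libraries, which may be technical. In bulk RNA, fewer cells that express a gene and less RNA per cell cannot be told apart.

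The hairpin check came out as labelled. CTR9 had 21.99, 24.6, 19.95 and 27.1 CPM in Dox shCTR9#3 libraries and 19.4, 17.05, 21.4 and 23.9 CPM in EtOH shCTR9#3 libraries, against 89.9, 73.2, 97.97 and 90.5 CPM in Dox shNTC libraries and 67.5, 78.9, 76.2 and 72.97 CPM in EtOH shNTC libraries. No library of shCTR9#3 came near one of shNTC. CTR9 was lower than in shNTC by a log2 fold change of -1.90 with Dox (adjusted p = 5.64e-17) and of -1.86 with EtOH (adjusted p = 6.82e-16). Within the hairpin, Dox moved CTR9 by 0.21 ± 0.16 (adjusted p = 0.559), and none of the 6 PAF1 complex subunits passed the test, with changes from -0.15 to 0.21.

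MYC itself rose about 17.1-fold. It had 11224, 11743, 12183 and 11141 CPM in Dox shCTR9#3 libraries, against 675, 738, 633 and 662 CPM in EtOH shCTR9#3 libraries. The groups lay far apart, with a log2 fold change of 4.09 ± 0.08 (adjusted p = 4.31e-39). Reads from the transgene and from the cells' own gene cannot be told apart in these counts. The rise was 4.88 ± 0.09 with shNTC, where MYC had 15017, 15856, 14548 and 14360.4 CPM in Dox libraries and 566, 568, 459 and 441 CPM in EtOH libraries. MYC was thus lower in Dox shCTR9#3 than in Dox shNTC libraries and higher in EtOH shCTR9#3 than in EtOH shNTC libraries, without overlap in either case. The difference of the response, shCTR9#3 minus shNTC, was -0.78 ± 0.11 (adjusted p = 9.24e-06).

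**Figure D1:**
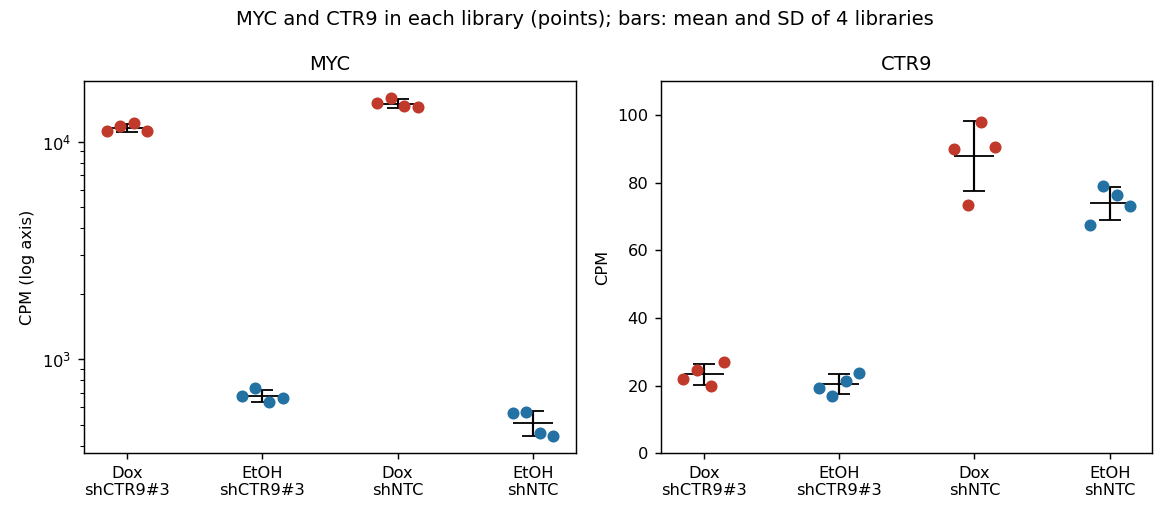
CPM of MYC (left, log axis) and CTR9 (right) in every library of 4 groups, as points, with bars for the mean and SD of 4 libraries. MYC averaged 11573 ± 486 CPM in Dox shCTR9#3 libraries and 677 ± 44.1 CPM in EtOH shCTR9#3 libraries, and CTR9 averaged 23.4 ± 3.11 and 20.5 ± 2.91 CPM in the same groups, against 87.9 ± 10.4 CPM in Dox shNTC and 73.9 ± 4.89 CPM in EtOH shNTC libraries.

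One library stood apart. EtOH shCTR9#3 replicate 1 held more reads of short transcripts than the others, with a slope of log2 level on log2 transcript length of -0.214 relative to the mean of all 40 libraries, against -0.0315 to 0.0402 in the other 7 libraries of shCTR9#3. Its pairs with its 3 group mates had a chi-square per degree of freedom from 6.30 to 9.61, where the other 9 pairs had 1.17 to 2.35. Ribosomal protein genes, which have short transcripts, took 2.52%, 2.30%, 2.44% and 2.25% of the reads in the 4 Dox libraries, against 3.98% in that library and 2.26%, 2.69% and 2.55% in the other EtOH libraries. Counts are therefore given with it and without it.

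With Dox, 636 genes were higher (5.06% of those tested) and 550 were lower (4.38%), 9.44% in all. Of these 1186 genes, 362 were higher and 295 lower by at least 1.5-fold, and 163 were higher and 67 lower by at least 2-fold. Without EtOH replicate 1, 424 genes were higher (3.32%) and 368 lower (2.88%) of 12790 tested, and 374 of the higher and 303 of the lower genes were among the calls made with it. The number of lower genes fell to 325 without Dox replicate 4 and 351 without Dox replicate 2. In each of the 8 fits that leave out 1 library, 297 higher and 188 lower genes kept their call. The genes described below as changed with a value of their own are among them, except SLC1A5, while members of a list that are only named may not be. All 4 Dox libraries lay above all 4 EtOH libraries for 7.19% of the genes tested and below them for 6.04%. Over all genes tested, the median change was -0.02.

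The same treatment called 1066 genes higher (8.49%) and 1121 lower (8.93%) with shNTC, 17.4% in all, and 483 higher (3.85%) and 377 lower (3.0%) with shCTR9#5, 6.85% in all. The 358 genes higher with Dox under both shCTR9#3 and shNTC made up 56.3% of the shCTR9#3 list and 33.6% of the shNTC list. The 277 genes lower under both made up 50.4% of the shCTR9#3 list and 24.7% of the shNTC list. With shCTR9#5, 335 higher genes were shared (52.7% of the shCTR9#3 list, 69.4% of the shCTR9#5 list), as were 206 lower genes (37.5% and 54.6%). These comparisons share no library. Over all genes the log2 fold changes correlated at Pearson 0.65 with shCTR9#5 and 0.486 with shNTC, across genes, which are not independent replicates.

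The largest rises held genes that were close to silent in EtOH cells. MMP13, a collagenase of the extracellular matrix, had 27.7, 35.4, 24.7 and 32.2 CPM in Dox shCTR9#3 libraries, against 0, 0.741, 2.04 and 0 CPM in EtOH shCTR9#3 libraries. All 4 EtOH libraries lay under the floor, with 3 reads in all against 144 with Dox, a ratio of 45.8 with an exact 95% interval of 15.4 to 225 that covers counting error only. The fitted change was 5.30 ± 0.52 (adjusted p = 1.17e-10), against 4.55 ± 0.45 with shCTR9#5 and 1.26 with shNTC, where the test was not passed (adjusted p = 0.598). The difference of response from shNTC did not pass either, at 4.05 (adjusted p = 0.635). No SE is given for it, because the shNTC libraries held too few reads of MMP13 for one.

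VIPR2, a receptor for vasoactive intestinal peptide, had 30.95, 49.3, 31.4 and 27.9 CPM in Dox shCTR9#3 libraries, against 2.78, 1.48, 4.09 and 3.54 CPM in EtOH shCTR9#3 libraries. Every Dox library was above every EtOH library, as the rule that chose the largest rises required, and replicate 2 was the highest of the Dox group. The change was 3.57 ± 0.33 (adjusted p = 4.86e-11). ALPG, a germ-cell type alkaline phosphatase, had 10.6, 16.2, 16.2 and 24.5 CPM in Dox shCTR9#3 libraries, against 1.85, 0.741, 2.04 and 2.65 CPM in EtOH shCTR9#3 libraries, a change of 3.18 ± 0.44 (adjusted p = 1.30e-06). C4orf54, an open reading frame with no role stated here, had 15.5, 12.3, 5.70 and 10.2 CPM with Dox, against 0.926, 1.48, 3.06 and 0 CPM with EtOH, a change of 2.97 ± 0.55 (adjusted p = 1.62e-04). Both genes separated the groups, which the same rule required, but over a wide spread among the Dox libraries.

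Several of the largest rises were members of families of near-identical copies, so that the reads of single members are uncertain. TRIM43 had 28.5, 41.6, 27.6 and 30.5 CPM in Dox shCTR9#3 libraries, against 0.926, 6.67, 4.09 and 4.42 CPM in EtOH shCTR9#3 libraries, a change of 2.92 ± 0.30 (adjusted p = 3.26e-10). TRIM43B, its close copy, changed by 2.89 ± 0.38 (adjusted p = 2.03e-07), TRIM49 by 2.77 ± 0.46 (adjusted p = 2.75e-05) and TRIM49C by 2.74 ± 0.52 (adjusted p = 2.31e-04). FRG2, of a family near chromosome ends, had 21.2, 21.6, 17.1 and 17.8 CPM with Dox, against 2.78, 2.97, 3.06 and 0.884 CPM with EtOH, a change of 2.96 ± 0.36 (adjusted p = 3.77e-08). These genes were at 0.741 to 6.67 CPM in the EtOH libraries, most of them within or near the floor of 3 counts. With shCTR9#5 the changes were 3.05 for TRIM43, 2.76 for TRIM49 and 2.86 for FRG2, and all passed. With shNTC none of the 5 passed, and the difference of response from shNTC did not pass for any of them either, with adjusted p from 0.0595 for TRIM43 to 0.961 for FRG2.

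LINC01060, a long noncoding RNA, was the best supported of the rises after HSPA6 and MYC. It had 135, 141, 121 and 128 CPM in Dox shCTR9#3 libraries, against 20.4, 22.2, 13.3 and 15.04 CPM in EtOH shCTR9#3 libraries. The groups did not come near each other, with a change of 2.86 ± 0.18 (adjusted p = 4.29e-17). It rose with shNTC as well (2.21 ± 0.19). The strand setting of the counting is not given in the sources used here, so reads of noncoding RNAs may include reads of genes that overlap them.

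**Figure D2:**
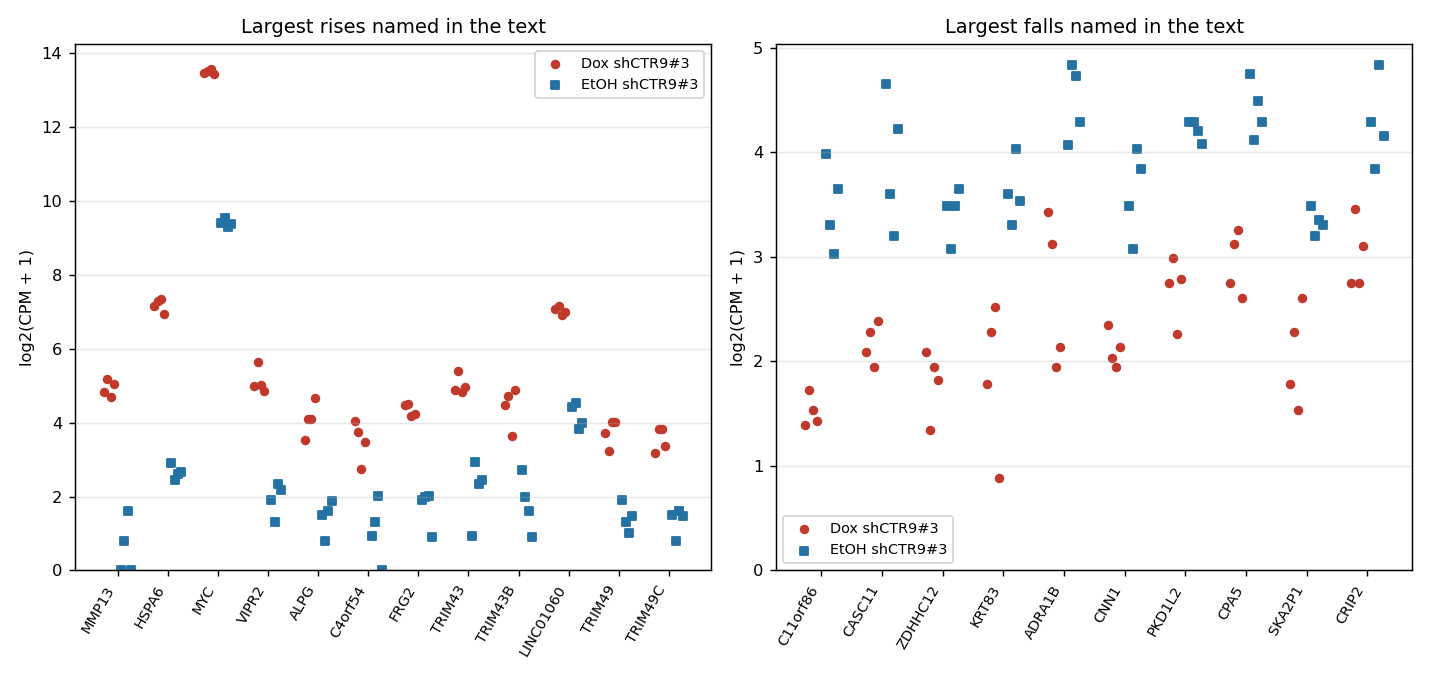
Level of the 12 largest rises (left) and of the 10 of the 12 largest falls that the text names (right) in each of the 8 libraries, as log2(CPM + 1), with Dox libraries as circles and EtOH libraries as squares. In the left panel 3 genes were above 100 CPM with Dox (MYC, HSPA6 and LINC01060), and all genes shown separate Dox from EtOH libraries because the rule that chose them asked for it.

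The heat shock list gave the highest share of rises of all lists with at least 5 members tested. All lists were chosen with earlier results of these data known, so shares here and below describe them and are not independent evidence. Of its 20 genes tested, 9 were higher and none lower, with a median change of 0.20, against 5.06% higher and a median of -0.02 for all genes. Without EtOH replicate 1 the count was 7 higher and 1 lower. The 9 were HSPA6, HSPA1A, HSPA1B, HSPA1L, HSPA4, HSPA8, HSPH1, DNAJB1 and BAG3, that is, members of the HSP70 family, an HSP110 partner and 2 co-chaperones. HSP70 proteins hold and refold unfolded chains, and heat shock factor HSF1 raises their genes when unfolded protein builds up.

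HSPA6, an HSP70 that is nearly silent in unstressed cells, had 141, 156, 162 and 123 CPM in Dox shCTR9#3 libraries, against 6.48, 4.45, 5.11 and 5.31 CPM in EtOH shCTR9#3 libraries. Its change was 4.75 ± 0.21 (adjusted p = 1.26e-23), 26.98-fold, against 4.43 ± 0.21 with shCTR9#5 and 2.73 ± 0.29 with shNTC. In shNTC cells it had 31.6, 21.2, 20.5 and 25.2 CPM with Dox and 3.38, 3.83, 3.94 and 3.36 CPM with EtOH, so that every Dox shCTR9#3 library was above every Dox shNTC library. The difference of the response from that with shNTC was 2.02 ± 0.47 (adjusted p = 0.034). That call held in 7 of the 16 fits that leave out 1 library, with adjusted p from 0.0207 to 0.117 and differences from 1.93 to 2.17.

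HSPA1A and HSPA1B, the main inducible HSP70 genes, code for nearly the same mRNA, so the split of reads between them is uncertain. HSPA1A had 2248, 2124, 2642 and 2295 CPM in Dox shCTR9#3 libraries, against 866, 808, 1081 and 1140.0 CPM in EtOH shCTR9#3 libraries, a change of 1.26 ± 0.12 (adjusted p = 1.00e-10). HSPA1B changed by 1.27 ± 0.12 (adjusted p = 1.11e-10). Both were higher in 4 of 4 Dox libraries than in any EtOH library, and both also rose with shNTC (0.86 ± 0.12 and 0.78 ± 0.12). BAG3, a co-chaperone of HSP70, had 189, 200.2, 227 and 208 CPM with Dox, against 152, 128, 157 and 162 CPM with EtOH, a change of 0.46 ± 0.10 (adjusted p = 0.00189). The HSP90 genes and HSF1 of the list did not pass the test, with values shown in the plot of the list.

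**Figure D3:**
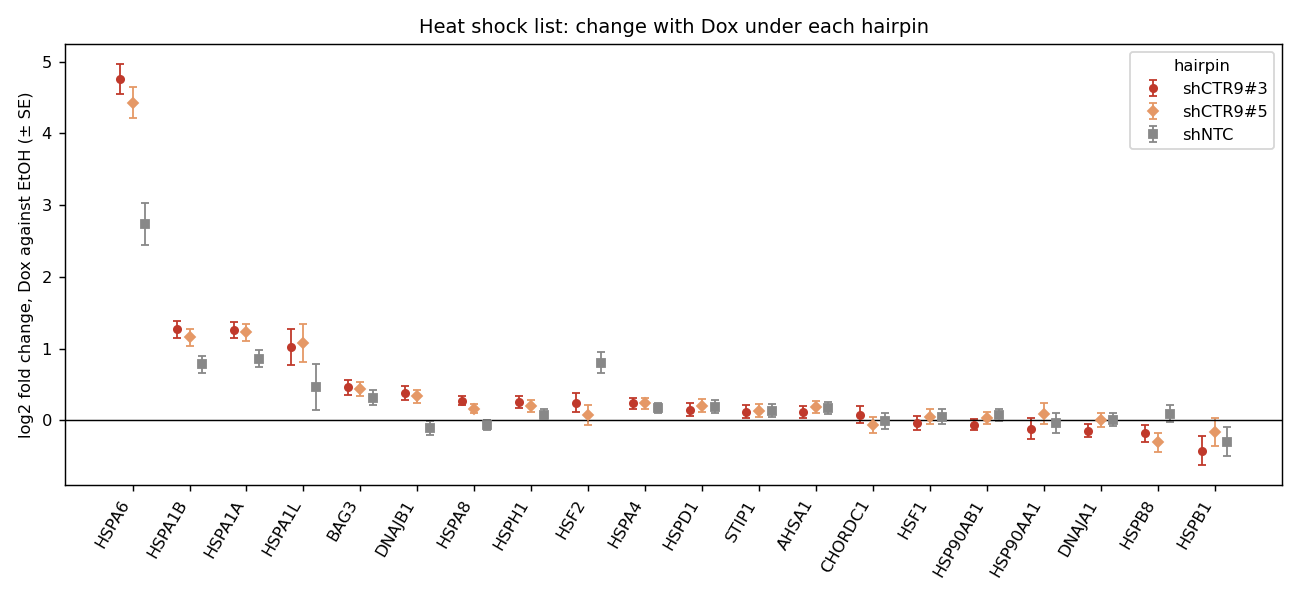
Log2 fold change of Dox against EtOH with its SE for the 20 heat shock genes tested, under shCTR9#3 (circles), shCTR9#5 (diamonds) and shNTC (squares). HSPA6 stands at 4.75 with shCTR9#3, 4.43 with shCTR9#5 and 2.73 with shNTC, while most other members lie within 0.5 of 0.

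The promoters of the 3 heat shock genes with the smallest p are shown because they hold the element that heat shock factor is known to read, inverted copies of the letters GAA. The search was for GAANNTTC or TTCNNGAA, which are each their own reverse complement, in the window from 250 bases before to 50 after the start in RefSeq's GRCh38.p14 annotation. Printed are the 250 bases before and 30 after the start on the gene's strand, with matches in capitals.
HSPA6: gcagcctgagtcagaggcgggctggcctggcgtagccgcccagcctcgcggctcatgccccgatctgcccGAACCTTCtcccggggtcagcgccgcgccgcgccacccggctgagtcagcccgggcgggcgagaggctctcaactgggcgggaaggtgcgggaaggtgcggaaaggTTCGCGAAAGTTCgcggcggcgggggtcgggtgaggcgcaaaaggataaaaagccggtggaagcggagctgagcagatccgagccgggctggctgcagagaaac
HSPA1A: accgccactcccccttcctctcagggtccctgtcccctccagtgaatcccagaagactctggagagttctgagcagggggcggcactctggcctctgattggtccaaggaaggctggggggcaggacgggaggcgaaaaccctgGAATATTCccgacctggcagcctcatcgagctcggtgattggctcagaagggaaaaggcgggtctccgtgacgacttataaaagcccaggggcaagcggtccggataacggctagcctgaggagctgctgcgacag
HSPA1B: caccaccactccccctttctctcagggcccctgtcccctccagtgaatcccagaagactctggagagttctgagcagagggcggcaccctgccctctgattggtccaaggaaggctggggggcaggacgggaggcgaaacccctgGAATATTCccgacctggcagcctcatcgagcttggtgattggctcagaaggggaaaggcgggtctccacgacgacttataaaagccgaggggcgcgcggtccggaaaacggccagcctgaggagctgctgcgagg
The printed windows are chr1:161524290-161524569, chr6:31815293-31815572 and chr6:31827488-31827767 of GRCh38.p14, all on the plus strand. HSPA6 held 3 matches, starting 180, 74 and 69 bases before the start, and the last 2 overlap. HSPA1A held 1 match, 106 bases before the start, and HSPA1B 1 match, 105 bases before it. Of 19 heat shock genes tested that have a promoter in the table, 9 held a match (47.4%), as did 5 of the 9 that rose (55.6%), against 9.98% of 8946 promoters of all genes tested. Over all genes, 42 of 459 promoters of genes higher with Dox held a match (9.15%), and 34 of 412 of genes lower (8.25%). The match was thus frequent in the heat shock list but not among the genes that rose as a whole. A match describes the letters in the window and does not show that a factor was bound.

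Part of the ribosome assembly list rose under shCTR9#3. Of 66 genes tested, 15 were higher and none lower, with a median change of 0.21, against 5.06% higher and a median of -0.02 for all genes. Without EtOH replicate 1, 12 were higher and none lower, and the fits that leave out 1 library gave 10 to 16 higher, with 6 genes called in each of the 8 fits. The same list gave 14 higher with shCTR9#5 (median 0.22) and 39 higher with shNTC (median 0.38), and no member was lower with either. The 15 covered nucleolar assembly factors (RRP12, NOLC1, NOP2, PWP2, NCL, WDR43, UTP18, RRP1B, TSR1, DDX21, IMP4, NOL6 and URB2) and the RNA polymerase I subunits POLR1B and POLR1E. Whether the response of single members differed from that with shNTC was tested gene by gene, and none passed in either direction.

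RRP12, which takes part in the export of ribosomal subunits, had 288, 284, 287 and 316 CPM in Dox shCTR9#3 libraries, against 243, 193, 221 and 203 CPM in EtOH shCTR9#3 libraries. NOP2, a methyltransferase of the large subunit's RNA, had 283, 298, 300.2 and 259 CPM with Dox, against 181, 213, 205 and 212 CPM with EtOH. Their changes were 0.45 ± 0.09 (adjusted p = 3.30e-04) and 0.49 ± 0.09 (adjusted p = 3.44e-04), and neither gene's groups overlapped. NOLC1, a nucleolar chaperone, averaged 442 ± 31.2 CPM with Dox and 353 ± 15.2 CPM with EtOH (SD, n = 4 each), a change of 0.32 ± 0.08 (adjusted p = 0.00345). PWP2, part of the small subunit processome, averaged 119 ± 4.78 CPM with Dox and 86.7 ± 10.3 CPM with EtOH (SD, n = 4 each), a change of 0.46 ± 0.11 (adjusted p = 0.00418). The rises of these genes were 1.25-fold to 1.40-fold.

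The promoter of PWP2 is shown as an example of an E-box at the start of such a gene. The printed window is chr21:44107149-44107428 of GRCh38.p14, plus strand, credited to RefSeq, with the E-box CACGTG in capitals.
PWP2: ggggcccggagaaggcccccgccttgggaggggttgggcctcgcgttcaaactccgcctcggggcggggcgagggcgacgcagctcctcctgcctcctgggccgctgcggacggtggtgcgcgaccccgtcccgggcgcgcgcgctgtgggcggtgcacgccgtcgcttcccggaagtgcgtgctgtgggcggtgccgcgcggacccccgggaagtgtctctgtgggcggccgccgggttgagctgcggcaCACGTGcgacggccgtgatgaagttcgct
The match starts at base 2, counting the start site as base 1. NOP2 held its match at base 36, outside the printed length, and TSR1 held none. The E-box reads the same on both strands, and it occurred in 6 of the 10 ribosome assembly genes that rose and have a promoter in the table and in 22 of the 56 on the list (39.3%). Over all genes it occurred in 77 of 459 promoters of genes higher with Dox (16.8%), 26 of 412 of genes lower (6.31%) and 928 of 8946 of genes tested (10.4%). The related letters CATGTG or CACATG occurred in 33 of the 459 (7.19%), 22 of the 412 (5.34%) and 6.19% of the genes tested.

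Other lists of growth genes held single strong members. Of 31 common MYC targets, 4 were higher and none lower (median 0.15), and the count was 7 without EtOH replicate 2. HK2, hexokinase 2, which starts glycolysis, had 299, 310.4, 353 and 345 CPM in Dox shCTR9#3 libraries, against 93.5, 146, 133 and 131 CPM in EtOH shCTR9#3 libraries, a change of 1.37 ± 0.12 (adjusted p = 1.14e-12). CCND2, cyclin D2, had 272, 243, 248 and 251 CPM with Dox, against 139.8, 142, 134 and 156 CPM with EtOH, a change of 0.83 ± 0.08 (adjusted p = 2.85e-10). SLC16A1, a lactate carrier, averaged 985 ± 46.1 CPM with Dox and 701 ± 30.1 CPM with EtOH (SD, n = 4 each), a change of 0.49 ± 0.07 (adjusted p = 1.44e-06). All 3 separated the groups, and all 3 rose with shNTC too, by 1.26, 0.78 and 0.70.

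Glycolysis as a list was mixed, with 3 of 23 genes higher and 2 lower (median -0.11), against 5.06% and 4.38% among all genes, and 1 lower without EtOH replicate 1. PFKFB3, which makes the activator of phosphofructokinase, averaged 169 ± 10.6 CPM with Dox and 109 ± 7.32 CPM with EtOH (SD, n = 4 each), a change of 0.64 ± 0.10 (adjusted p = 1.17e-05). SLC2A3, the glucose carrier GLUT3, fell to 86.3, 63.2, 58.9 and 59.2 CPM in Dox shCTR9#3 libraries, against 80.5, 103, 111 and 117 CPM in EtOH shCTR9#3 libraries. Its groups overlapped through Dox replicate 1 and EtOH replicate 1, and its change was -0.62 ± 0.13 (adjusted p = 0.00127).

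Amino acid transporters had 5 of 16 genes higher and none lower, with the highest median of the lists with at least 6 members tested, 0.42. The 5 were SLC7A5, SLC7A2, SLC1A3, SLC1A5 and SLC36A1, and 3 of them were called in each of the 8 fits. SLC7A5, the carrier of large neutral amino acids, had 1225, 1137, 1293 and 1235 CPM in Dox shCTR9#3 libraries, against 536, 764, 851 and 868 CPM in EtOH shCTR9#3 libraries, a change of 0.70 ± 0.11 (adjusted p = 7.48e-06). SLC7A2, a carrier of arginine and lysine, averaged 128 ± 5.73 CPM with Dox and 73.4 ± 19.7 CPM with EtOH (SD, n = 4 each), a change of 0.80 ± 0.14 (adjusted p = 4.78e-05). SLC1A3, a glutamate carrier, changed by 0.82 ± 0.21 (adjusted p = 0.00648). SLC1A5, the glutamine carrier, had 286, 273, 280.3 and 302 CPM with Dox, against 109, 213, 225 and 227 CPM with EtOH, a change of 0.56 ± 0.15 (adjusted p = 0.0129). EtOH replicate 1 was the lowest library for each of these 4 genes, and without it SLC1A5 no longer passed, at 0.37 (adjusted p = 0.0563), while 4 of the 16 were higher.

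Of 27 nucleotide synthesis genes, 4 were higher and 1 lower (median 0.09). The higher count was 2 without EtOH replicate 1, 3 or 4 or Dox replicate 3. GMPS, which makes GMP, averaged 152 ± 2.50 CPM with Dox and 114 ± 4.07 CPM with EtOH (SD, n = 4 each), a change of 0.41 ± 0.09 (adjusted p = 0.00202), and IMPDH1, the step before it, changed by 0.47 ± 0.13 (adjusted p = 0.0134). The lower gene was RRM1, the large subunit of ribonucleotide reductase, with 59.5, 61.6, 57.95 and 66.9 CPM in Dox shCTR9#3 libraries, against 92.6, 85.99, 75.6 and 84.9 CPM in EtOH shCTR9#3 libraries, a change of -0.46 ± 0.12 (adjusted p = 0.0112). Its Dox libraries all lay under its EtOH libraries. Of 17 serine and one-carbon enzymes, 2 were higher (11.8%) and none lower (median 0.09). The better supported was MAT2A, which makes the methyl donor S-adenosylmethionine, with 634 ± 13.1 CPM with Dox and 492 ± 38.5 CPM with EtOH (SD, n = 4 each) and a change of 0.36 ± 0.08 (adjusted p = 0.00262).

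In the MYC network, the partners and relatives of MYC, 4 of 13 genes were higher and none lower (median 0.16), and the count was 2 without EtOH replicate 1 or Dox replicate 1, 2 or 4. Beside MYC itself the call that held in each of the 8 fits that leave out 1 library was MYCL, a paralog of MYC. MYCL had 37.5, 25.4, 34.2 and 34.7 CPM in Dox shCTR9#3 libraries, against 12.96, 8.15, 6.13 and 14.2 CPM in EtOH shCTR9#3 libraries, a change of 1.65 ± 0.26 (adjusted p = 1.16e-05). It rose by 1.77 with shNTC.

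Immediate early genes are known to answer growth and stress signals quickly, and the list moved in both directions, with 4 of 22 higher and 2 lower (median 0.03). ARC, an actin-linked early gene known from neurons, had 528, 539, 586 and 564 CPM in Dox shCTR9#3 libraries, against 194, 228, 269.6 and 259 CPM in EtOH shCTR9#3 libraries, a change of 1.22 ± 0.10 (adjusted p = 1.35e-13). EGR1, an early transcription factor, had 96.1, 104, 91.2 and 113 CPM with Dox, against 21.3, 34.8, 24.5 and 27.4 CPM with EtOH, a change of 1.88 ± 0.19 (adjusted p = 1.54e-10). Both groups were far apart for both genes. FOS, a subunit of the factor AP-1, had 98.6, 87.8, 80.8 and 75.3 CPM with Dox, against 63.9, 43.7, 38.8 and 35.4 CPM with EtOH, a change of 0.92 ± 0.15 (adjusted p = 3.26e-05). CCN1, a secreted matrix protein of the same list, fell to 341, 388, 362 and 325 CPM with Dox, against 538, 554, 540.3 and 525 CPM with EtOH, a change of -0.61 ± 0.10 (adjusted p = 2.71e-05).

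**Figure D4:**
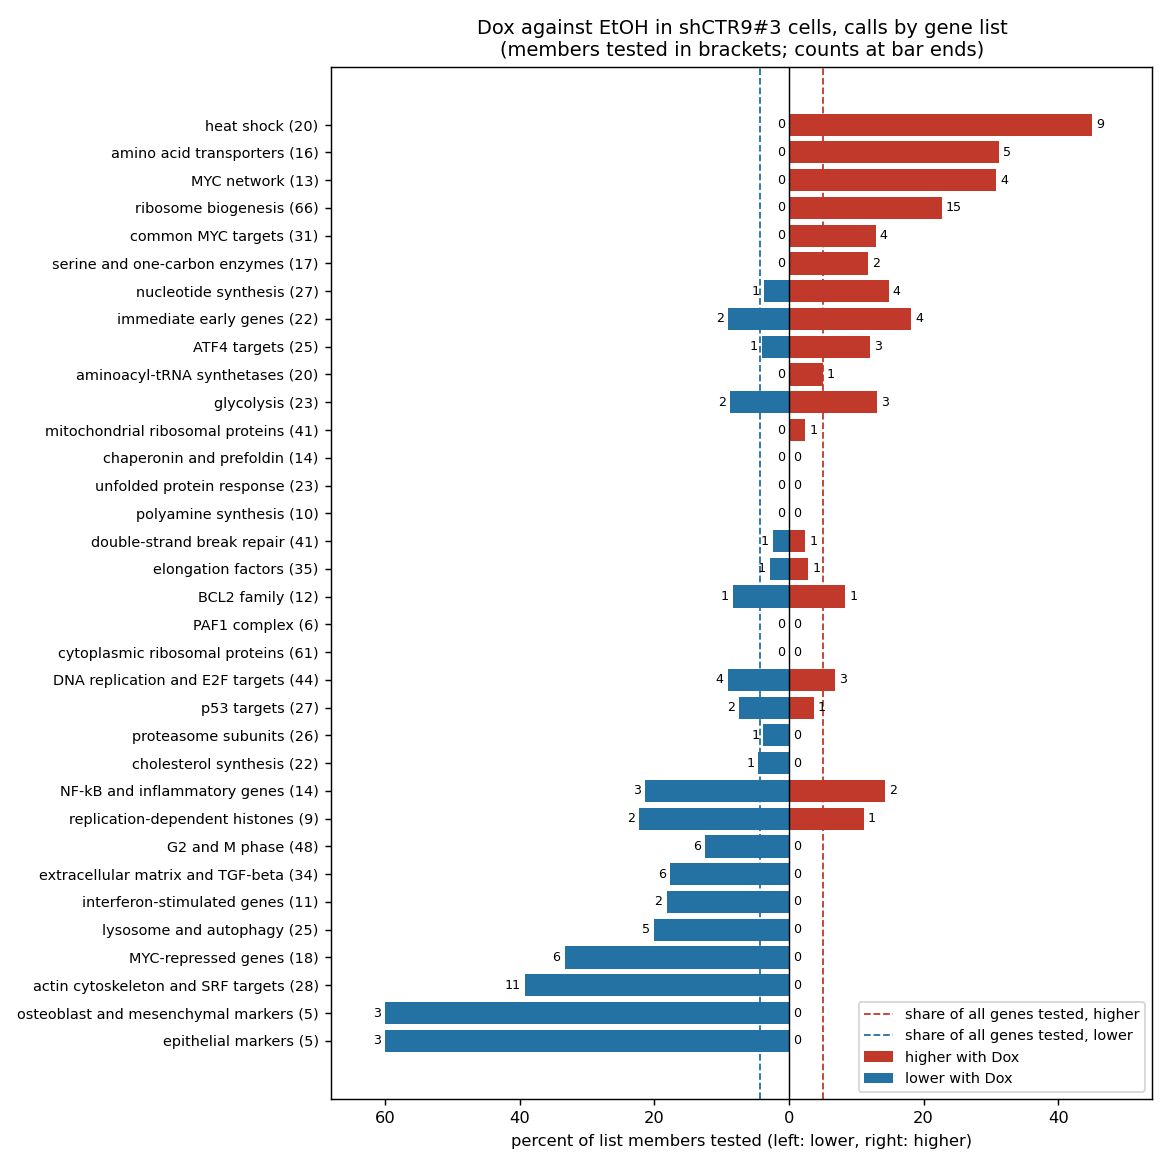
Share of the members tested that were called higher (right) and lower (left) with Dox in shCTR9#3 cells, for every list with at least 5 members tested, with the counts at the bar ends. Dashed lines mark the shares among all 12557 genes, 5.06% higher and 4.38% lower, and heat shock (9 of 20 higher) and the actin list (11 of 28 lower) lie far outside them. The lists were chosen with earlier results of these data known, so these shares describe the lists and are not independent evidence.

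Part of the list of actin cytoskeleton genes and targets of serum response factor (SRF) fell. Of 28 genes tested, 11 were lower and none higher, with a median change of -0.30, against 4.38% lower and a median of -0.02 for all genes. The 11 were ACTB, TPM1, TPM4, TAGLN2, CNN1, CNN2, CNN3, CAPN2, PDLIM7, TUBB6 and MISP. They include actin, tropomyosins and calponins, but also TUBB6, a tubulin, and CAPN2, a protease. The count was 6 without EtOH replicate 1 or Dox replicate 1, and 7 without EtOH replicate 3 or 4 or Dox replicate 2, 3 or 4, with 5 genes called in each of the 8 fits. TPM1, a tropomyosin that stiffens actin filaments, had 28.5, 28.5, 31.4 and 33.8 CPM in Dox shCTR9#3 libraries, against 61.1, 58.6, 55.1 and 73.4 CPM in EtOH shCTR9#3 libraries, a change of -1.02 ± 0.17 (adjusted p = 1.90e-05). MISP, an actin-bundling protein of the spindle and cell cortex, had 25.3, 16.2, 19 and 12.7 CPM with Dox, against 44.4, 39.3, 41.9 and 37.1 CPM with EtOH, a change of -1.15 ± 0.20 (adjusted p = 4.62e-05). PDLIM7 changed by -0.59 ± 0.12 (adjusted p = 4.66e-04) and CNN1, a calponin, by -1.72 ± 0.39 (adjusted p = 0.00221). None of these 4 genes had overlapping groups, which for CNN1 was required by the rule that chose the largest falls.

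Genes known to be repressed by MYC had 6 of 18 lower and none higher (median -0.28), against 4.38% lower among all genes, and 5 without EtOH replicate 1. Lists share members, so some calls count more than once. TPM1 is also on the actin list, and SPARC on the matrix and mesenchymal lists. HK2 and SLC16A1 are on the lists of common MYC targets and of glycolysis. CAV1, the coat protein of caveolae, fell to 44.8, 33.9, 43.7 and 44.8 CPM in Dox shCTR9#3 libraries, against 79.6, 86.7, 79.7 and 80.5 CPM in EtOH shCTR9#3 libraries, a change of -0.97 ± 0.12 (adjusted p = 3.13e-08). CLU, the secreted chaperone clusterin, averaged 293 ± 20.8 CPM with Dox and 402 ± 53.04 CPM with EtOH (SD, n = 4 each), a change of -0.46 ± 0.09 (adjusted p = 7.93e-04). With shNTC the list had 10 lower and 1 higher, and CAV1 changed by -1.45 and CLU by -0.41.

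Extracellular matrix and TGF-beta genes had 6 of 34 lower and none higher (median -0.21), and 8 lower without EtOH replicate 1. TGFBI, a matrix protein that TGF-beta induces, had 134, 146, 149 and 146 CPM in Dox shCTR9#3 libraries, against 328, 273, 305 and 305 CPM in EtOH shCTR9#3 libraries, a change of -1.07 ± 0.11 (adjusted p = 3.26e-10). SPARC, a collagen-binding protein of bone, had 242, 213, 240.4 and 237 CPM with Dox, against 281, 297, 327 and 354 CPM with EtOH, a change of -0.43 ± 0.09 (adjusted p = 4.96e-04). ITGB5, an integrin subunit, changed by -0.45 ± 0.09 (adjusted p = 6.46e-04). Each separated the 4 Dox from the 4 EtOH libraries. The list had 20 lower with shNTC and 10 lower with shCTR9#5.

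Some markers of cell identity were lower with Dox as well. Of 12 osteoblast and mesenchymal markers 5 were tested and 3 were lower, and of 10 epithelial markers 5 were tested and 3 were lower. Without EtOH replicate 1, 2 of the mesenchymal and 1 of the epithelial markers were lower, and no fit that leaves out 1 library called more than 2 epithelial markers. The summed level of the mesenchymal list ran from 795 to 924 CPM in the Dox libraries and from 1140 to 1451 in the EtOH libraries, and that of the epithelial list from 265 to 286 and from 311 to 476. VIM, the mesenchymal filament vimentin, had 591, 495, 532 and 531 CPM in Dox shCTR9#3 libraries, against 1149, 723, 855 and 763 CPM in EtOH shCTR9#3 libraries, a change of -0.70 ± 0.12 (adjusted p = 4.78e-05). KRT8, a keratin of simple epithelia, had 50.5, 49.3, 44.7 and 44.8 CPM with Dox, against 91.7, 63.8, 80.7 and 74.3 CPM with EtOH, a change of -0.70 ± 0.15 (adjusted p = 9.56e-04). EtOH replicate 1 was the highest library for both, and the calls held without it. The bone marker BGLAP and the keratin KRT19 had 0 reads in all 8 libraries. Blood markers summed, also without TMM, to 5.02 to 12.1 with Dox and 7.02 to 9.38 with EtOH, with CD3E, LYZ and HBB at 0 reads in all 8. Endothelial markers summed, also without TMM, to 4.65 to 10.9 with Dox and 3.41 to 9.72 with EtOH, with PECAM1 at 0.

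Genes of lysosomes and autophagy had 5 of 25 lower and none higher (median -0.09), and 6 lower without EtOH replicate 1. CTSB, the protease cathepsin B, had 325, 377, 409 and 365 CPM in Dox shCTR9#3 libraries, against 592, 521, 545 and 570.4 CPM in EtOH shCTR9#3 libraries, a change of -0.60 ± 0.07 (adjusted p = 5.82e-08). ATP6V1A, a subunit of the proton pump, had 139, 126, 124 and 133 CPM with Dox, against 183, 180.1, 169.5 and 174 CPM with EtOH, a change of -0.44 ± 0.10 (adjusted p = 0.00296). NPC2, which moves cholesterol out of lysosomes, changed by -0.77 ± 0.18 (adjusted p = 0.00435), with 1 Dox library above the lowest EtOH library. TFE3, a transcription factor of lysosomal genes, changed by -0.39 ± 0.10 (adjusted p = 0.00674), but it missed the threshold when low counts were not filtered (adjusted p = 0.0536).

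Among BCL2 family genes, which set the threshold for apoptosis, 1 of 12 was higher and 1 lower. The shares among all genes were 5.06% higher and 4.38% lower. With 1 call each way the list as a whole did not stand out, and its called genes are given singly. BCL2L1, which codes for the survival protein BCL-XL, fell to 169, 169, 165 and 144 CPM in Dox shCTR9#3 libraries, against 226, 263, 292 and 295 CPM in EtOH shCTR9#3 libraries, a change of -0.73 ± 0.09 (adjusted p = 6.94e-08). BCL2L11, which codes for the killer protein BIM, rose to 125, 119, 106 and 124 CPM with Dox, against 79.6, 93.4, 76.6 and 91.98 CPM with EtOH, a change of 0.47 ± 0.12 (adjusted p = 0.00922). Neither gene's groups overlapped. With shNTC they changed by -0.62 and 0.67, and with shCTR9#5 by -0.65 and 0.49, all past the threshold.

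Of 14 NF-kB and inflammatory genes, 2 were higher and 3 lower, and 1 was lower without EtOH replicate 1. NFKB1, a subunit of the factor itself, had 82.3, 88.6, 87.4 and 89.7 CPM in Dox shCTR9#3 libraries, against 44.4, 54.1, 56.2 and 68.98 CPM in EtOH shCTR9#3 libraries, a change of 0.64 ± 0.13 (adjusted p = 7.27e-04). ICAM1, an adhesion molecule, had 20.4, 11.6, 19 and 29.6 CPM with Dox, against 3.70, 9.64, 11.2 and 3.54 CPM with EtOH, a change of 1.49 ± 0.32 (adjusted p = 0.00115). The nearest libraries of the groups differed little for ICAM1. TNFAIP2 changed by -0.58 ± 0.14 (adjusted p = 0.00594), with groups that overlapped through EtOH replicate 1. Of 11 interferon-stimulated genes 2 were lower (18.2%) and none higher, and 1 was lower without EtOH replicate 1. One of the 2 was STAT2, a signal factor of the interferon receptor, with 23.6, 24.6, 17.1 and 30.5 CPM with Dox, against 36.1, 40.03, 48 and 45.1 CPM with EtOH, a change of -0.80 ± 0.17 (adjusted p = 9.96e-04).

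Of the cell cycle lists, G2 and M phase held only falls, and DNA replication moved in both directions. Of 48 genes of G2 and M phase 6 were lower (12.5%) and none higher (median -0.16), against 4.38% lower among all genes. With shNTC 28 were lower (median -0.41), and with shCTR9#5 3 were lower (median -0.19). No member passed the test of the difference between shCTR9#3 and shNTC. The count of 6 was 2 without Dox replicate 4 and 3 without Dox replicate 2 or 3 or EtOH replicate 2 or 3. TOP2A, topoisomerase 2 alpha, which untangles chromosomes, had 401, 431, 470.3 and 492 CPM in Dox shCTR9#3 libraries, against 568, 626, 602 and 604 CPM in EtOH shCTR9#3 libraries, a change of -0.42 ± 0.08 (adjusted p = 2.15e-04). It was the 1 gene of the list called in each of the 8 fits. Of 44 DNA replication and E2F genes 3 were higher (6.82%) and 4 lower (9.09%), with a median of 0.03. The lower count was 2 without EtOH replicate 1 or 4 or Dox replicate 1, 2 or 4. CCNE1, cyclin E1, averaged 164 ± 7.61 CPM with Dox and 123 ± 15.7 CPM with EtOH (SD, n = 4 each), a change of 0.42 ± 0.11 (adjusted p = 0.00674).

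Of 41 genes of double-strand break repair, the process named in the study's title, 1 was higher and 1 lower (median 0.01), against 5.06% and 4.38% among all genes. Neither call held in each of the 8 fits. Of 27 p53 targets 1 was higher (3.7%) and 2 lower (7.41%), near the shares among all genes (median -0.06), so the list as a whole did not stand out and its called genes are given singly. GDF15, a secreted stress protein, had 18.7, 24.6, 19.95 and 20.3 CPM in Dox shCTR9#3 libraries, against 52.8, 34.8, 32.7 and 34.5 CPM in EtOH shCTR9#3 libraries, a change of -0.88 ± 0.18 (adjusted p = 7.93e-04). DDB2, a reader of ultraviolet damage, changed by -0.50 ± 0.12 (adjusted p = 0.00607), and ZMAT3, an RNA-binding protein, by 0.40 ± 0.10 (adjusted p = 0.00758).

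The remaining lists held few calls, to be read against 5.06% higher and 4.38% lower among all genes. Cytoplasmic ribosomal proteins had none of 61 past the threshold, and their median of -0.30 became -0.04 without EtOH replicate 1, which read these short genes most. Unfolded protein response genes (23 tested), chaperonin and prefoldin (14) and polyamine synthesis (10) had no call. Mitochondrial ribosomal proteins had 1 of 41 higher, tRNA synthetases 1 of 20 higher, cholesterol synthesis 1 of 22 lower and proteasome subunits 1 of 26 lower. Elongation factors had 1 higher and 1 lower of 35. ATF4 targets had 3 higher (12%) and 1 lower (4%) of 25, and replication-dependent histones 1 higher (11.1%) and 2 lower (22.2%) of 9. The rises of ATF4 targets and both histone shares were thus above those among all genes, but on few genes. Fits that leave out 1 library gave 1 to 3 ATF4 targets higher, and 0 to 1 histones higher and 0 to 2 lower.

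The largest falls were mostly of genes at low levels. C11orf86 had 1.63, 2.31, 1.90 and 1.69 CPM in Dox shCTR9#3 libraries, against 14.8, 8.90, 7.15 and 11.5 CPM in EtOH shCTR9#3 libraries, a change of -2.42 ± 0.52 (adjusted p = 0.00107). CASC11, a noncoding RNA whose gene lies beside MYC, had 3.26, 3.85, 2.85 and 4.23 CPM with Dox, against 24.1, 11.1, 8.17 and 17.7 CPM with EtOH, a change of -2.06 ± 0.39 (adjusted p = 2.05e-04). All 4 Dox values of C11orf86 lay at or under the floor of 3 counts, and Dox replicate 3 of CASC11 lay at it. The falls of ZDHHC12, an enzyme that attaches palmitate to proteins, of KRT83, a hair keratin, and of PKD1L2 were -1.90, -1.90 and -1.62, with adjusted p of 0.00137, 0.00119 and 6.89e-05.

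ADRA1B, an adrenaline receptor, had 9.77, 7.70, 2.85 and 3.38 CPM in Dox shCTR9#3 libraries, against 15.7, 27.4, 25.5 and 18.6 CPM in EtOH shCTR9#3 libraries, a change of -1.84 ± 0.32 (adjusted p = 7.78e-05). Every Dox library was below every EtOH library, as the rule that chose the largest falls required. CPA5, a carboxypeptidase, changed by -1.58 ± 0.29 (adjusted p = 1.20e-04), CRIP2, a LIM protein, by -1.33 ± 0.33 (adjusted p = 0.0051) and SKA2P1, a pseudogene whose reads may belong to its parent gene, by -1.40 ± 0.38 (adjusted p = 0.0128).

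Whether the response differed from that with the control hairpin was tested gene by gene as the change with shCTR9#3 minus the change with shNTC. It did for 35 genes (0.279% of those tested), of which 24 had a higher response with shCTR9#3 (0.191%) and 11 a lower one (0.0876%). Without EtOH shCTR9#3 replicate 1, 26 of the 35 were called, and 19 were called in each of the 16 fits that leave out 1 library. Of the 24, 18 fell with Dox in shNTC cells, and of these 13 were not called with shCTR9#3, 4 rose and 1 fell there. All 11 with a lower response rose with Dox in shNTC cells, and of these 5 were not called with shCTR9#3, 3 rose and 3 fell there.

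VIPR2 and TAF11L12 led the higher responses. VIPR2, described above, had 2.16, 2.44, 0.933 and 0.787 CPM in Dox shNTC libraries and 3.38, 0.766, 1.97 and 5.03 CPM in EtOH shNTC libraries, at or near the floor in both, and its difference of response was 4.27 ± 0.76 (adjusted p = 0.00214). TAF11L12, of a family of near-identical copies, had 26.1, 24.6, 21.9 and 24.5 CPM in Dox shCTR9#3 libraries, against 2.78, 5.93, 6.13 and 1.77 CPM in EtOH shCTR9#3 libraries, with a difference of 3.24 ± 0.63 (adjusted p = 0.00487). In shNTC cells it had 0.719, 1.63, 4.67 and 0.787 CPM with Dox and 2.53, 4.59, 3.29 and 1.68 CPM with EtOH. LINC00452, a noncoding RNA, moved in opposite directions, with 116, 134, 111 and 127 CPM in Dox shCTR9#3 libraries, against 32.4, 55.6, 46.98 and 42.5 CPM in EtOH shCTR9#3 libraries, and 29.5, 26.9, 17.7 and 22.04 CPM in Dox shNTC libraries, against 33.8, 47.5, 45.99 and 44.5 CPM in EtOH shNTC libraries. It rose by 1.45 ± 0.17 with shCTR9#3 and changed by -0.82 ± 0.21 with shNTC, a difference of 2.27 ± 0.27 (adjusted p = 4.03e-07).

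RRM2 and PLK2 were picked after their values were seen, as well expressed members of the 24. RRM2, the small subunit of ribonucleotide reductase, had 547, 483, 551 and 503 CPM in Dox shCTR9#3 libraries, against 524, 473, 469.8 and 479 CPM in EtOH shCTR9#3 libraries. In shNTC cells it had 290.4, 308, 287 and 325 CPM with Dox and 534, 450.3, 488 and 453 CPM with EtOH. Its level with Dox was thus lower in every shNTC library than in any shCTR9#3 library, and the difference of response was 0.77 ± 0.11 (adjusted p = 1.20e-05). PLK2, a stress-induced kinase, had 444, 381, 400.0 and 397 CPM in Dox shCTR9#3 libraries, against 335, 382, 354 and 348 CPM in EtOH shCTR9#3 libraries, and 152, 136, 115 and 115 CPM in Dox shNTC libraries, against 217, 211, 223 and 189.6 CPM in EtOH shNTC libraries. Its difference was 0.89 ± 0.12 (adjusted p = 1.03e-05).

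Among the lower responses were MYC itself, given above, MLF1 and GPR3. MLF1, myeloid leukaemia factor 1, had 175, 162, 163 and 154 CPM in Dox shCTR9#3 libraries, against 214, 129, 133 and 128 CPM in EtOH shCTR9#3 libraries. In shNTC cells it had 179, 166, 171 and 167 CPM with Dox and 86.9, 75.05, 77.5 and 68.8 CPM with EtOH. The Dox libraries of both hairpins overlapped, every EtOH shNTC library was lower than every EtOH shCTR9#3 library, and the difference of response was -1.03 ± 0.21 (adjusted p = 0.0106). GPR3, a receptor that raises cyclic AMP, had 52.1, 59.3, 69.4 and 55 CPM in Dox shCTR9#3 libraries, against 49.1, 53.4, 58.2 and 59.3 CPM in EtOH shCTR9#3 libraries, and 63.3, 71.6, 67.2 and 59.03 CPM in Dox shNTC libraries, against 34.6, 34.5, 28.3 and 28.5 CPM in EtOH shNTC libraries. Its difference was -0.96 ± 0.20 (adjusted p = 0.0088).

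**Figure D5:**
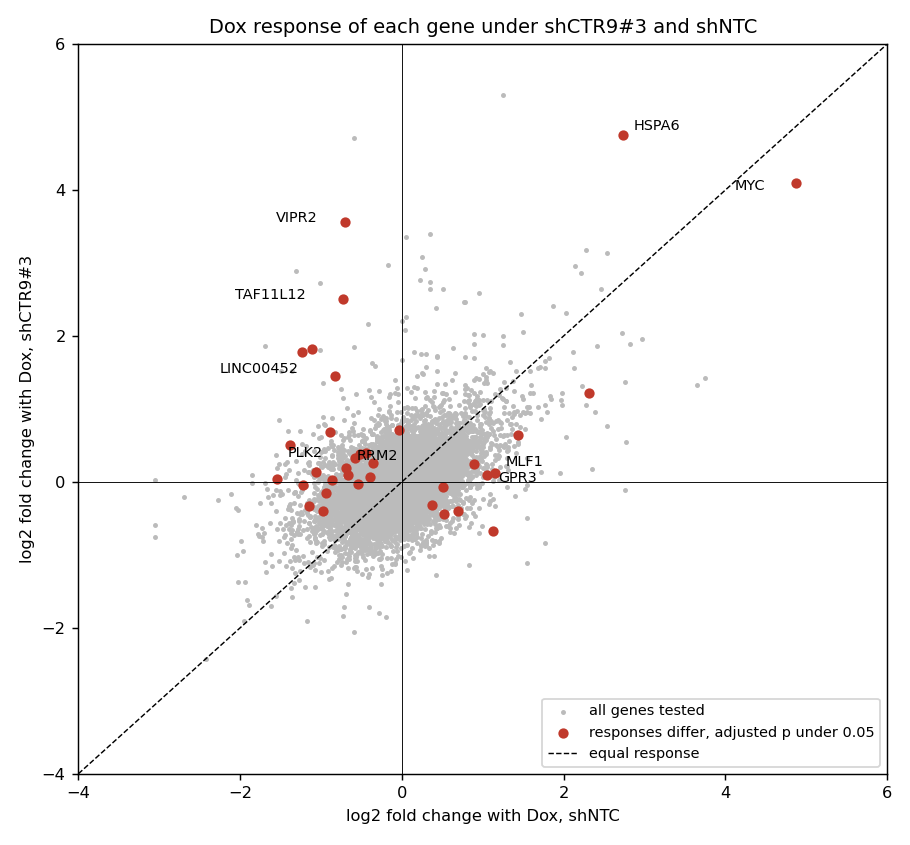
Log2 fold change with Dox under shCTR9#3 (vertical) against that under shNTC (horizontal) for every gene tested, with the 35 genes whose responses differ in red and a dashed line of equal response. MYC lies under the line, at 4.09 with shCTR9#3 and 4.88 with shNTC, and HSPA6 above it, at 4.75 and 2.73.

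Against hairpin 5, the other hairpin for CTR9, no gene passed the test of the difference (0.0% of those tested by edgeR, and 0 by DESeq2). At an unadjusted p under 0.05 there were 413 genes (3.29%). The median size of the difference was 0.18, and its median SE was 0.274, so differences of that size could not be told from 0 at this depth. MYC rose by 4.09 ± 0.08 with shCTR9#5, HSPA6 by 4.43 ± 0.21, TPM1 changed by -0.88 ± 0.15 and TGFBI by -0.74 ± 0.11.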

How the data were processed

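The authors deposited raw read counts per gene, 1 table per library. The submitters' processing notes name HISAT2, Bowtie, edgeR and build hg19. Neither their versions and roles nor the annotation and strand setting are given in the sources used here, so no hg19 coordinates are printed. Of 63545 entries, 39560 genes matched a symbol and hold 97.27% of reads, and 37 mitochondrially encoded genes are listed at 0 reads.

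Counts were analysed with edgeR 4.0.16 (R 4.3.3). Genes were filtered by group (a minimum count of 10, and 15 in total), which kept 12557 genes with 98.65% of reads, and libraries were scaled by TMM. All 40 libraries entered 1 robust quasi-likelihood model with 10 group means (common dispersion 0.0129, 30 residual degrees of freedom). P-values are two-sided and Benjamini-Hochberg adjusted over all genes tested. SEs are the absolute log2 fold change over the square root of F, and are rough where a group holds few reads. DESeq2 1.42.0 was an alternative. Intervals and the floor of 3 counts cover counting error only. The steps were tested on simulated counts.

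The cells, the 36 gene lists and the tests were chosen with earlier results of these data known. Genes named are MYC and the PAF1 subunits, the 12 largest rises and falls that pass with and without EtOH shCTR9#3 replicate 1, have at least 5 CPM on average and separate the groups, per list the 4 genes of smallest p, and the 5 largest differences of response each way; some were left out. Promoters come from RefSeq tables for GRCh38.p14, matched by symbol for 8946 of the genes tested. Alternatives are in the closing section.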

Additional observations from a re-analysis of the deposited data

Results flagged for a closer look

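For each of the genes named in the text, the level of each of the 4 libraries was compared with the others of its group, and a library was picked out where its gap to the nearest other took up more of the group's range than Dixon's limit for 4 values allows. Over 158 groups of 4 libraries, 13 were picked out, and chance alone gives about 1 in 20. EtOH shCTR9#3 replicate 1 accounted for 4 of them. It had 14.8 CPM of SLC1A3, 109 CPM of SLC1A5, 52.8 CPM of GDF15 and 214 CPM of MLF1. EtOH replicate 2 had 86.7 CPM of CAV1 and 322 CPM of CLU, and EtOH replicate 4 had 0.884 CPM of FRG2. Among the Dox libraries, replicate 1 had 86.3 CPM of SLC2A3, replicate 2 had 49.3 CPM of VIPR2 and 33.9 CPM of CAV1, replicate 3 had 2720 CPM of HSPA1B, and replicate 4 had 316 CPM of RRP12 and 144 CPM of BCL2L1.

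The response to Dox differed between shCTR9#3 and shNTC cells, by the test of the difference itself (edgeR, adjusted over all genes), for these genes named in the text. It was higher with shCTR9#3 by 4.27 for VIPR2, 3.24 for TAF11L12, 2.27 for LINC00452, 2.02 for HSPA6, 0.89 for PLK2 and 0.77 for RRM2, on the log2 scale. It was lower, with differences of -0.78 for MYC, -1.03 for MLF1 and -0.96 for GPR3.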

How the results depend on the processing

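RLE size factors, no filter on low counts, DESeq2, leaving out the 3 libraries of the series that read short transcripts most, and transcript-length slope as covariate kept the counts of Dox against EtOH in shCTR9#3 cells within 1.5 times (550 to 849 higher, 436 to 777 lower). Fitting only the groups compared gave 255 higher, 177 lower and 354 past 1.5-fold. The library names carry a letter with no stated meaning: letter A alone gave 100 higher, 49 lower and 144 past 1.5-fold, and letter B alone 114, 82 and 176, with fewer libraries. Leaving out 1 library gave 424 to 652 higher, 325 to 654 lower and 480 to 758 past 1.5-fold. Genes differing in response from shNTC numbered 24 to 48 without 1 library, 57 with no filter, 22 with only the groups compared, 0 with letter A, 3 with letter B, 83 without the 3 short-transcript libraries and 171 with the slope covariate. For these last 2 counts the cause was not tested. Against shCTR9#5 the count was 0 in every alternative. CTR9 stayed lower throughout, from -1.96 to -1.78 (EtOH) and -1.99 to -1.85 (Dox) without 1 library.

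Same-numbered Dox and EtOH libraries deviated together weakly (correlations 0.138, 0.0716, 0.0558 and 0.0735). Dox replicates 1, 2 and 3 each correlated best with the EtOH library of the same number, and Dox replicate 4 with EtOH replicate 2 (0.104). The labels only number the replicates, and the numbers were not taken to pair the samples. Replicate 1 of EtOH shCTR9#3 correlated with replicate 1 of the shNTC and shCTR9#5 groups at 0.275 to 0.39, and replicate 2 at 0 to 0.169. With the replicate number as a block, 797 genes were higher and 744 lower, and 83 differed in response from shNTC.

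MLF1, which was not called in shCTR9#3 cells (0.119), was close to 0 with letter A alone (-0.011, adjusted p = 0.986), and was called higher without the 3 short-transcript libraries (0.337, adjusted p = 0.0387) and with the slope covariate (0.349, adjusted p = 0.00266). For the named genes, calls that ended did so mostly with letter A or B alone or only the groups compared. Library totals of 997585 to 1337909 counts limit genes at a few CPM.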
